A study of Mus musculus with 16 samples.

Results

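Genes of cholesterol synthesis, sensing, transport, efflux and storage were followed in mouse monocytes at rest and after activation. The set is a list of 33 gene symbols, and a row of the deposited table belonged to it when its symbol was on the list. All 33 symbols were found among the 13085 genes of the table. They comprise 18 synthesis enzymes, 5 genes of sterol sensing, 3 of intracellular transport, 5 of the liver X receptor (LXR) and efflux branch, and 2 of storage and oxysterol formation. All 33 passed the filter of at least 1 CPM in at least 2 of 16 libraries, and 31 had at least 1 CPM in every library. The other 2 are Fdps, which fell under 1 CPM in some stimulated libraries at 24 h, and Ch25h, which passed only through the stimulated libraries.

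Monocytes of NFAM1+/+ and NFAM1-/- mice of strain C57BL/6 were cultured for 6 or 24 h either without a stimulus or with IFN-γ followed by MegaCD40L, a multimeric ligand of the receptor CD40, at 1 ug/mL. NFAM1 is a membrane receptor with an ITAM signalling motif, and the study asked what its loss changes in activated monocytes. Each of the 8 groups of genotype, stimulus and time holds 2 libraries of polyA RNA, so each of the 4 conditions of stimulus and time holds 4. The mice carried a Cas9 deletion of exons 2 and 3 of Nfam1 made in C57BL/6NTac zygotes, and NFAM1+/+ controls came from the same intercrosses. Ages are not given in the sources used here for these mice. A figure legend of the study names 4 NFAM1+/+ and 6 NFAM1-/- mice without dividing them between the times. The labels call the cells PBL monocytes while the methods describe isolation from bone marrow, and the IFN-γ dose is 100 ug/mL in the labels and 50 ng/mL in the methods for sequencing.

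Libraries are named by the number in their title. At 6 h libraries 1 and 2 were unstimulated NFAM1+/+, 3 and 4 unstimulated NFAM1-/-, 26 and 10 stimulated NFAM1+/+, and 11 and 12 stimulated NFAM1-/-. At 24 h, by title, 44 and 45 were unstimulated NFAM1+/+, 43 and 46 unstimulated NFAM1-/-, 56 and 57 stimulated NFAM1+/+, and 55 and 58 stimulated NFAM1-/-. For 4 of these, libraries 44, 46, 56 and 58, the genotype tag names the other genotype. Contrasts of stimulus and of time weight both genotypes equally, so their fold changes do not depend on that conflict. Their p values can, since the spread is taken within groups.

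Nfam1 itself had 432 and 408 CPM in libraries 1 and 2 and 299 and 321 CPM in libraries 3 and 4. With the stimulus at 6 h it had 133 and 129 CPM in the NFAM1+/+ and 135 and 127 CPM in the NFAM1-/- libraries. At 24 h it had 463, 495, 441 and 391 CPM in libraries 44, 45, 43 and 46 and 271, 252, 201 and 223 CPM in libraries 56, 57, 55 and 58. These counts cover the whole gene, including exons outside the deletion, so they check neither the genotype nor the conflicting labels.

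The stimulus labels were borne out by 9 of 9 interferon response genes, which rose with the stimulus at both times under either scaling. Their summed level was 111 to 157 CPM without and 51849 to 60251 CPM with the stimulus at 6 h. All 10 monocyte markers were listed, led by Lyz2 at 2667 to 23256 CPM, and Csf1r, the receptor for colony stimulating factor 1, had 605 to 3286 CPM. The sum of the 10 was lower with the stimulus, at 9164 to 11114 CPM against 23889 to 26164 CPM at 6 h. At 24 h it was 8721 to 11951 CPM against 27218 to 30910 CPM. Lyz2 made up most of the mean sum except with the stimulus at 6 h, at 3518.5 of 10086 CPM. Ly6c2, Ms4a6c and Fcgr1 had higher means with the stimulus at both times, at 2401, 958 and 702 CPM against 424, 368 and 31.8 CPM at 6 h. Of the B cell markers Ms4a1 and Pax5, of the T cell markers Cd3d, Cd3e, Cd3g and Trac, and all 5 NK cell markers were not in the table. The B cell marker Cd79b had 5.96 to 16.4 CPM in unstimulated libraries at 24 h and 0.442 to 0.914 CPM with the stimulus at 6 h. Cd79a had at most 1.22 CPM. The T cell marker Lck had 2.57 to 3.115 CPM with the stimulus at 6 h and at most 0.329 CPM without it at that time. The 10 neutrophil markers summed to 544 to 942 CPM in unstimulated libraries at 24 h against 72.9 to 361 CPM in the libraries of the other 3 conditions, with S100a9 the most abundant. Elane and Mpo instead had their highest means with the stimulus at 6 h, at 8.66 and 6.53 CPM. In unstimulated libraries at 24 h their means were 2.45 and 4.28 CPM. Of 5 dendritic cell markers Flt3 and Siglech had their highest means in unstimulated libraries at 24 h, at 104.9 and 15.9 CPM, while Clec9a, Xcr1 and Zbtb46 had theirs with the stimulus. The part of these cells in the results on unstimulated libraries at 24 h was not tested, nor was that of shifts in the monocyte markers, which went both ways, in the falls with the stimulus. In such bulk samples fewer cells of a type and less RNA per cell cannot be told apart.

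Animal cells make cholesterol from acetyl-CoA in a chain of enzymes that runs through mevalonate, isoprenoid units, squalene and lanosterol. When sterol in the endoplasmic reticulum is low, SCAP escorts the membrane-bound factors SREBP1 and SREBP2 to the Golgi, where they are cut and released to switch on synthesis genes, while INSIG proteins hold the complex back when sterol is plentiful. When sterol is in excess, oxysterols activate LXR, which drives the exporters ABCA1 and ABCG1 and the ubiquitin ligase MYLIP. Macrophages activated by interferon are known to make 25-hydroxycholesterol, the product of CH25H, which restrains SREBP processing.

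The promoters of the synthesis genes were read first, since many of these genes moved together and SREBP acts at promoters with the CCAAT-binding factor NF-Y. RefSeq promoters of GRCm38.p6 were matched for 27 of the 33 genes. Fdps, Fdft1, Sqle, Stard4, Npc1 and Abcg1 had no entry. The 250 bases before each start were searched on both strands for the SRE core TCACNCCAC, for CCAAT, for the E-box CACGTG, for the GAS motif TTCNNNGAA and for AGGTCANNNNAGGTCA. CCAAT was found in 14 of 15 matched synthesis genes, or 93.3%, against 40.6% of the 9513 matched genes of the deposited table. Acat2 was the synthesis gene without it. CCAAT was also found in 4 of 5 matched sensing genes and in 1 of 4 of the LXR and efflux branch, Mylip. Over all matched members its share was 77.8%. The SRE core was found in Hmgcs1 and in no other member, which is 3.7% of the members against 1.23% of the genes of the table. The E-box was found in Hsd17b7, Sc5d, Dhcr7, Insig1, Scap and Abca1, which is 22.2% of members against 9.97%. The GAS motif was found in Ebp alone, which is 3.7% against 7.22%, and the last motif in no member and in 0% of the genes of the table. A match is a run of letters, not a measured binding site, and these shares were not tested.

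The last 150 bases before the start are shown for 6 synthesis genes, chosen to set the gene with an SRE core, Mvk with its 4 CCAAT matches and 3 genes that fell with the stimulus at 24 h beside Mvd, which rose. Motifs are in capitals, no marked motif overlaps another, and ATTGG is CCAAT read on the opposite strand. Hmgcs1 lies at chr13:119690201-119690350 on the plus strand and holds the SRE core, then CCAAT. Mvk lies at chr5:114444119-114444268 on the plus strand with 4 CCAAT matches. Mvd lies at chr8:122443423-122443572 on the minus strand with 2. Idi1 lies at chr13:8885456-8885605 on the plus strand with 2. Cyp51 lies at chr5:4104698-4104847 on the minus strand with 1. Hsd17b7 lies at chr1:169969206-169969355 on the minus strand with an E-box and 2 CCAAT matches.
Hmgcs1: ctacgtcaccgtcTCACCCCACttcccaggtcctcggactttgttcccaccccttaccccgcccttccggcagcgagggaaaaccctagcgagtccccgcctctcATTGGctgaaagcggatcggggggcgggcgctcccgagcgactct
Mvk: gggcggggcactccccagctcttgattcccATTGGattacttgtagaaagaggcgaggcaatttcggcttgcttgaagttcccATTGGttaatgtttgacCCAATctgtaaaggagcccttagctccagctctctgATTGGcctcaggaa
Mvd: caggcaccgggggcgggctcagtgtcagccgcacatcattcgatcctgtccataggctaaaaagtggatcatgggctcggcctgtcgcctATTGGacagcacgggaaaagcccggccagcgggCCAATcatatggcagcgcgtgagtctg
Idi1: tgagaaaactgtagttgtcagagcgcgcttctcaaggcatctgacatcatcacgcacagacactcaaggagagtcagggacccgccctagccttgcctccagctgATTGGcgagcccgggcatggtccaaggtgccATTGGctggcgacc
Cyp51: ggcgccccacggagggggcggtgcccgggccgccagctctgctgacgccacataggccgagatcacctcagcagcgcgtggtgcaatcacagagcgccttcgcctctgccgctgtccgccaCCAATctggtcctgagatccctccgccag
Hsd17b7: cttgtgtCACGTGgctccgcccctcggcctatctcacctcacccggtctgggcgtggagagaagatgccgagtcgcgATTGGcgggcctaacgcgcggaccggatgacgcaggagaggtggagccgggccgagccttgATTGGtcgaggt

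Values are CPM as the authors scaled them, and fold changes are on the log2 scale of their deposited values, which contain 0.5 added reads. Over the 12782 genes tested, limma had to give both a 2-fold or larger change and a p under 0.05 after the adjustment of Benjamini and Hochberg for a gene to be called. The authors' scaling set the reads of a library to 0.756 to 0.788 times its scaled size in unstimulated libraries, to 1.24 to 1.32 in stimulated libraries at 6 h and to 0.97 to 0.997 in stimulated libraries at 24 h. When each library was instead scaled to its own total of reads, the median of all genes moved from -0.13 to -0.87 for the stimulus at 6 h, from 0.01 to -0.34 at 24 h and from 0.04 to 0.42 for time with the stimulus. The share of called genes that were higher then went from 48.1% to 21.3% for the stimulus at 6 h, from 43.9% to 29.6% at 24 h and from 49.0% to 69.5% for time with the stimulus. Rises of single genes with the stimulus are therefore given under both scalings.

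**Figure D1:**
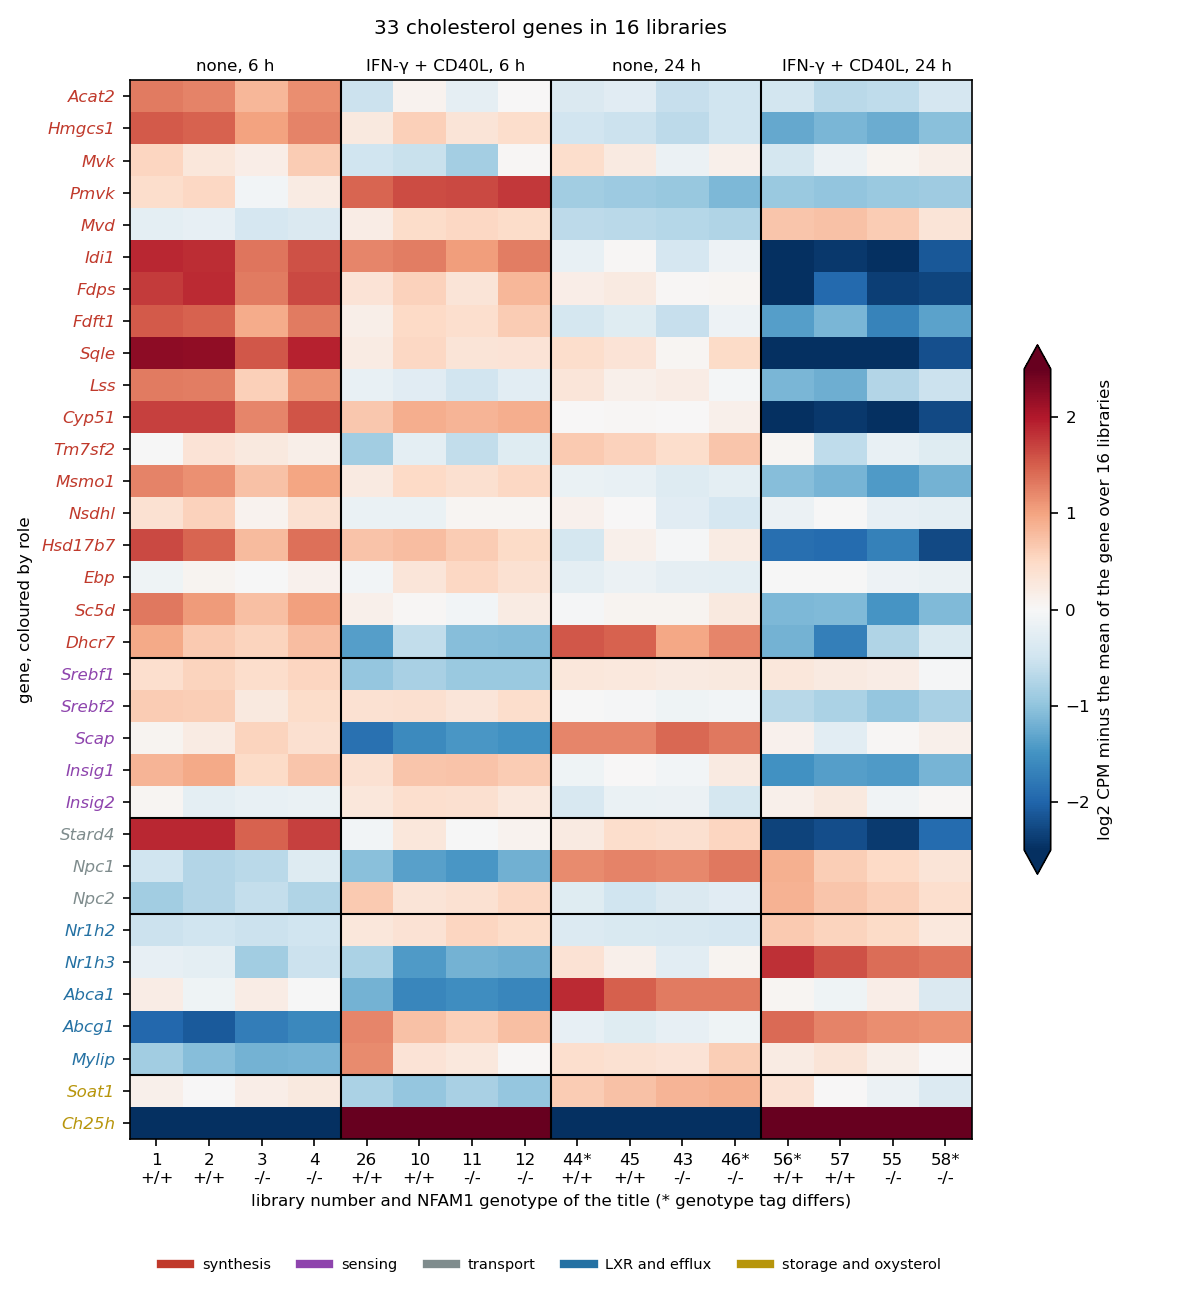
Level of each of the 33 genes (rows, grouped and coloured by role) in each of the 16 libraries (columns, by condition), as log2 CPM minus the mean of that gene over all libraries, with colours capped at 2.5. Most synthesis enzymes are highest in the 4 unstimulated libraries at 6 h and lowest in the 4 stimulated libraries at 24 h.

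Across the 4 conditions, 13 of the 18 synthesis enzymes had their highest mean in unstimulated monocytes at 6 h and 12 had their lowest in stimulated monocytes at 24 h. The share of all genes with such an order was not counted, so these counts are a description only. The heat map of all members shows that block as a step down from left to right. Squalene epoxidase, Sqle, which makes the first oxygenated step after squalene, had 133, 131, 83.2 and 107 CPM in libraries 1, 2, 3 and 4. With the stimulus at 6 h it had 32.6, 40.6, 35.2 and 36 CPM in libraries 26, 10, 11 and 12. Without stimulus at 24 h it had 38.4, 35.8, 29.4 and 39.6 CPM in libraries 44, 45, 43 and 46, and with it 3.83, 4.67, 3.69 and 6.21 CPM in libraries 56, 57, 55 and 58. The unstimulated 6 h libraries lay above, and the stimulated 24 h libraries below, every other library.

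At 6 h the stimulus lowered 5 synthesis enzymes past the threshold and raised 1, against 20.6% of all genes called lower and 19.1% called higher. The median over the 18 was -0.80, beside -0.13 over all genes tested, and 14 had an adjusted p under 0.05 with a negative sign, as did 43.3% of all genes. Dhcr7, the last enzyme of the pathway, fell most, by 1.77 ± 0.17 (SE, adjusted p = 3.65e-07). Sqle fell by 1.63 ± 0.15 (adjusted p = 1.81e-07), Lss, which folds squalene epoxide into lanosterol, by 1.38 ± 0.13 (adjusted p = 1.57e-07), Acat2 by 1.30 ± 0.15 (adjusted p = 1.47e-06) and Fdps by 1.12 ± 0.16 (adjusted p = 2.25e-05). In each of these 5 all 4 stimulated libraries lay below all 4 unstimulated ones. The same held for Mvk and Nsdhl, which were not called, and the share of all genes with such a separation was not counted. Hmgcs1, which makes HMG-CoA, had 264, 253, 181 and 216 CPM without and 108, 138, 114 and 123 CPM with the stimulus, a log2 change of -0.91 ± 0.08 (adjusted p = 1.45e-07) that falls short of the fold threshold. It was called under quantile normalization at -1.48, as were Cyp51 at -1.21 and Fdft1 at -1.03, and under own totals at -1.64.

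Pmvk, which adds the second phosphate to mevalonate, went the other way. It had 35.1, 37.3, 24.6 and 30.1 CPM without and 70.7, 80.6, 81.4 and 88.5 CPM with the stimulus, so that the groups did not overlap. Its log2 change was 1.35 ± 0.08 (adjusted p = 8.53e-10), and 0.62 when libraries were scaled to their own totals. Mvd, which catalyses the next step, changed by 0.71 ± 0.07 on the deposited scale and by -0.0229 on that of own totals, so no direction is given for it at 6 h. Under own totals 15 synthesis enzymes were called lower at 6 h in place of 5, and 44.0% of all genes in place of 20.6%. The call of Fdps at 6 h was lost under quantile normalization, at -0.86, and when libraries were centred on their medians, at -0.96. Without library 10 the change of Hmgcs1 was -1.001, without library 12 that of Mvk was -1.10, and without library 2, 3 or 12 that of Sc5d was -1.03, each then called. Acat2 shares 35.1% of its 101-base windows with transcripts of Acat3 and Tcp1 in GENCODE vM21, so its counts are uncertain.

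At 24 h the stimulus lowered 9 synthesis enzymes and raised 1, against 18.7% of all genes called lower and 14.6% called higher. The median over the 18 was -1.002, beside 0.01 over all genes. Sqle fell by 2.98 ± 0.15 (adjusted p = 2.97e-10), Idi1, which interconverts the isoprenoid units, by 2.52 ± 0.22 (adjusted p = 9.99e-08), the lanosterol demethylase Cyp51 by 2.47 ± 0.08 (adjusted p = 3.44e-12) and Fdps, which joins isoprenoid units to farnesyl diphosphate, by 2.39 ± 0.16 (adjusted p = 9.43e-09). Cyp51 had 60.1, 61.1, 60.1 and 65 CPM without and 10.2, 11.2, 10.6 and 12.6 CPM with the stimulus. Idi1 had 9.72, 11.3, 8.31 and 10.2 CPM without and 1.6, 2.09, 1 and 2.54 CPM with it. Dhcr7, Hsd17b7, Sc5d, Lss and Fdft1 also fell, by 1.03 to 2.31.

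**Figure D2:**
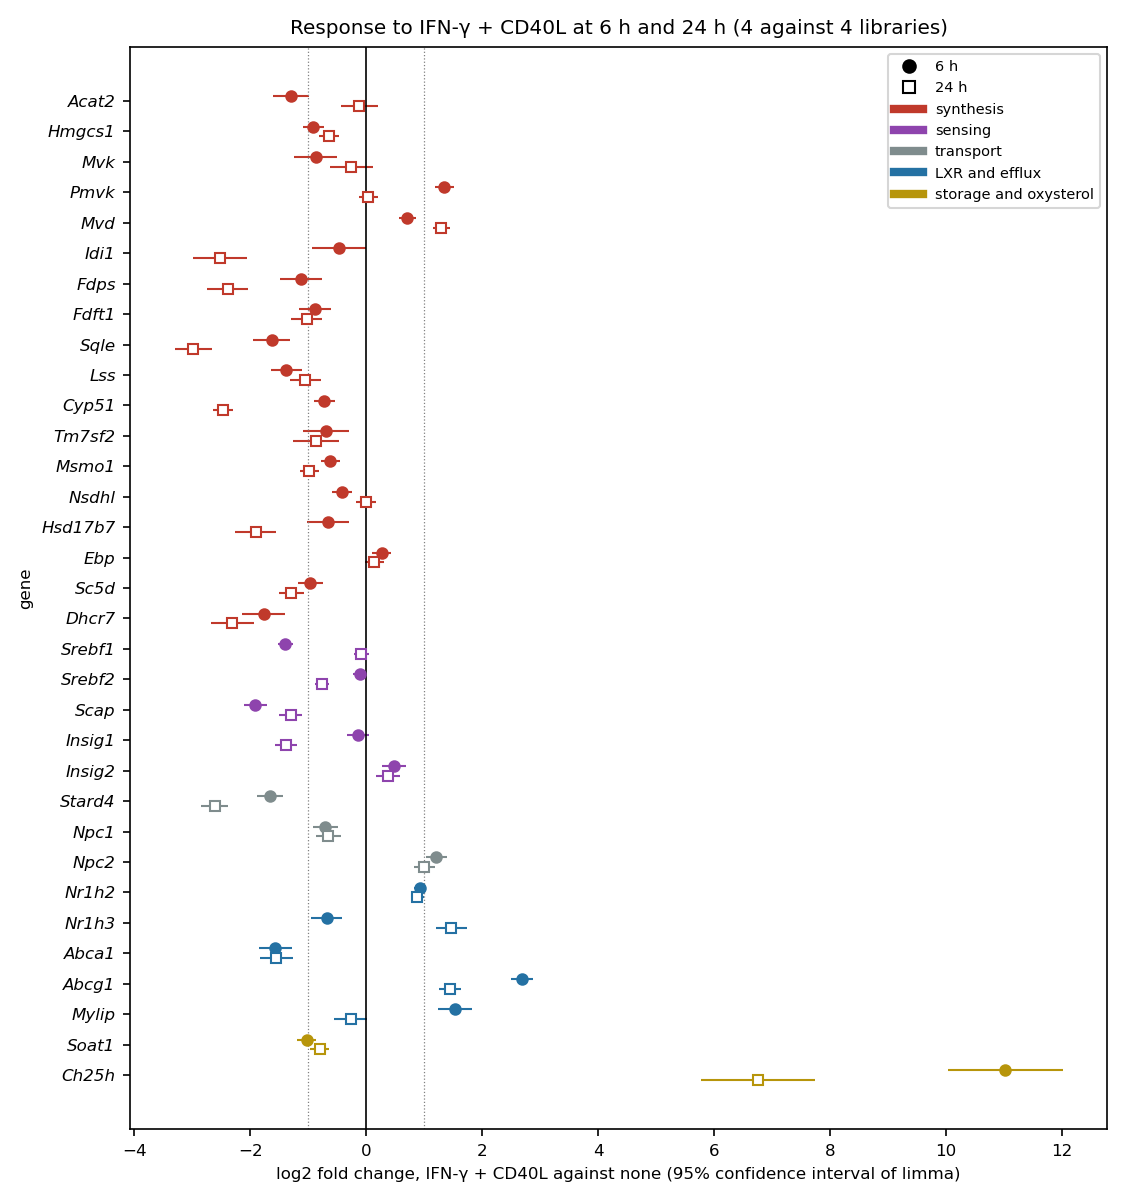
Log2 fold change of each of the 33 genes with IFN-γ plus CD40L at 6 h (filled circles) and 24 h (open squares), 4 stimulated against 4 unstimulated libraries, with 95% confidence intervals of limma. Dotted lines mark a fold change of 2, Sqle and Cyp51 lie left of them at 24 h, and Abcg1 lies right of them at both times.

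Mvd rose at 24 h. It had 45.3, 44.7, 43.7 and 42.9 CPM without and 117, 119.7, 111 and 90.1 CPM with the stimulus, a log2 change of 1.30 ± 0.07 (adjusted p = 5.43e-10). Under own totals its change was 0.97 and no longer passed the fold threshold. Mvk, Nsdhl, Ebp, Acat2 and Pmvk had adjusted p values of 0.103 to 0.947 at 24 h, and their libraries overlapped between the conditions. The call of Fdft1, at -1.03, was lost without library 45, 46, 55 or 56, with values of -0.99, -0.91, -0.94 and -0.96, and that of Lss, at -1.05, was lost without library 43 at -0.999. Under quantile normalization both calls were lost, with Lss at -0.82 and Fdft1 at -0.999. Tm7sf2 was called without library 56 at -1.04, and Msmo1 without library 56 or 58 at -1.004 and -1.04. With the 4 libraries of conflicting labels left out, 9 synthesis enzymes were again called lower, Msmo1 among them at -1.04 and Fdft1 no longer at -0.97. Fdft1 shares 21.4% of its windows with other transcripts, Ctsb among them, and Idi1 27.6%, while Fdps shares 26.7% of its exon bases with Gm43738.

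The response at 24 h was then set against that at 6 h by an interaction test in the same fit. Among synthesis enzymes 6 responses were called lower at 24 h than at 6 h and 1 higher, against 18.2% and 13.3% of all genes. The 6 were Idi1 at -2.06 ± 0.30, Cyp51 at -1.75 ± 0.12, Sqle at -1.35 ± 0.21, Pmvk at -1.32 ± 0.11, Fdps at -1.27 ± 0.23 and Hsd17b7 at -1.25 ± 0.24, with adjusted p values from 1.96e-08 to 0.000343. The higher one was Acat2 at 1.18 ± 0.21 (adjusted p = 0.000166). The share called lower among the 18 enzymes is above that of all genes on this scale, but it does not hold under own totals, where 2 enzymes were called lower and 2 higher, against 12.2% and 25.3% of all genes. Own totals move the median of all genes for this contrast from 0.04 to 0.44 and that of the enzymes from -0.25 to 0.15, with a share of higher calls of 67.5% in place of 42.1%. Idi1 at -1.66 and Cyp51 at -1.35 were still called lower, while Sqle at -0.95, Pmvk at -0.92, Fdps at -0.87 and Hsd17b7 at -0.85 were not. Acat2 at 1.58 was still called higher, and Mvk at 1.02 was called as well.

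Levels also differed between the times without a stimulus. From 6 to 24 h without stimulus 10 synthesis enzymes fell and 0 rose, against 7.76% of all genes called lower and 13.2% called higher, and their median was -1.25 beside 0.04 over all genes. Hmgcs1 fell by 1.86 ± 0.08 (adjusted p = 3.55e-10), to 65, 62.5, 58 and 64.8 CPM, and Idi1 by 1.84 ± 0.22 (adjusted p = 5.09e-06). Dhcr7 had a positive log2 change of 0.58 ± 0.17 (adjusted p = 0.00989) under a fold of 2. Own totals moved the median of the enzymes by little, to -1.27. Without library 3 the changes of Lss and Sc5d were -1.07 and -1.02 and were called, and without library 2 that of Sc5d was -1.01 and was called.

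With the stimulus 10 synthesis enzymes fell from 6 to 24 h and 0 rose, against 17.2% of all genes called lower and 16.5% called higher. The median of the 18 was -1.43 beside 0.04, and -1.06 beside 0.42 under own totals, where Sc5d at -0.90 was no longer called. Idi1 fell by 3.90 ± 0.22 (adjusted p = 1.1e-09) and Cyp51 by 3.26 ± 0.08 (adjusted p = 1.21e-12). Pmvk fell by 2.56 ± 0.08 (adjusted p = 3.81e-12), from 70.7 to 88.5 CPM at 6 h to 13.2 to 14.1 CPM at 24 h. Which libraries were processed together is not given in the sources used here, so time and processing cannot be told apart.

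**Figure D3:**
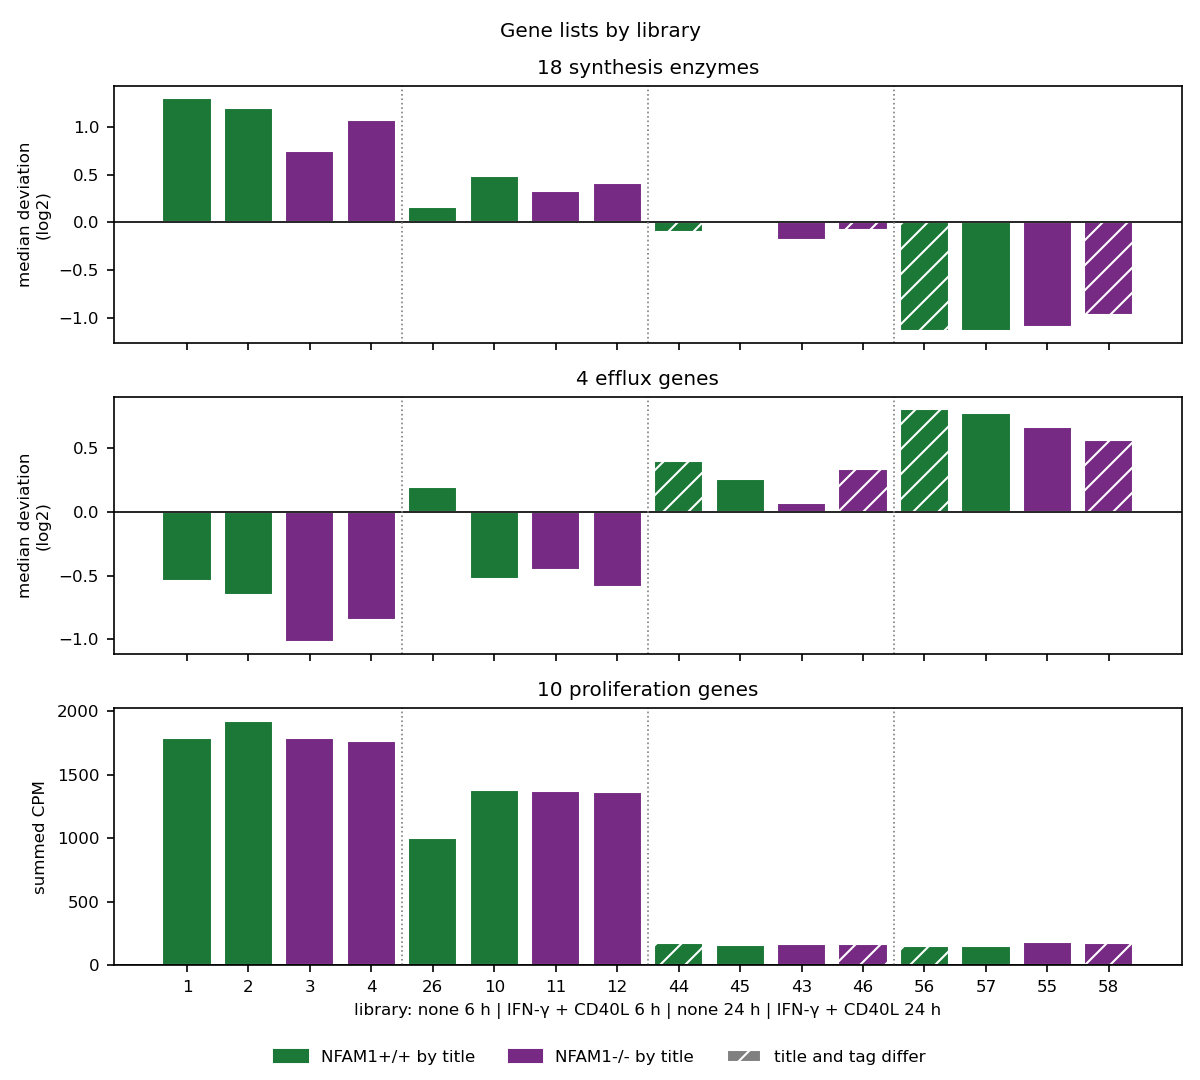
Top and middle, the median over the 18 synthesis enzymes and over the 4 efflux genes of log2 CPM minus the mean of each gene, in each library. Bottom, the summed CPM of 10 proliferation genes, which runs from 999 to 1929 at 6 h and from 151 to 180 at 24 h.

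Proliferation genes moved with time beside the synthesis enzymes. Their summed level was 1764 to 1929 CPM without and 999 to 1384 CPM with the stimulus at 6 h, the lowest in library 26. At 24 h it was 161 to 176 CPM without and 151 to 180 CPM with the stimulus, while 2 of the 10 genes rose and 2 fell with the stimulus at that time, or 0 and 3 under own totals. From 6 to 24 h 9 of 10 proliferation genes fell without and 10 of 10 with the stimulus. Their part in the fall of the synthesis enzymes with time was not tested. Among the genes outside the set whose profiles over the 16 libraries had the highest Pearson correlation with the mean standardized profile of the enzymes were Tfdp1, Vcl, Nup107, Hmgb3, Depdc1b, Haus4, Cenpa, Cdc20 and Zfp101. Their correlations ran from 0.970 to 0.985, as a description over libraries that share conditions. Cenpa, a centromere histone, and Cdc20, an activator of the anaphase complex, are cell division genes.

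The enzymes were not uniform. The correlation of each enzyme with the mean of the other 17 had a median of 0.898, and was highest for Msmo1 at 0.981 and Fdft1 at 0.979. It was -0.512 for Mvd, 0.162 for Tm7sf2, 0.252 for Ebp, 0.320 for Mvk and 0.397 for Dhcr7. Among the other 15 members Stard4 at 0.950, Srebf2 at 0.937 and Insig1 at 0.925 followed the same profile most closely, and Abcg1 at -0.836 ran opposite to it. These values describe 16 libraries in 4 conditions and carry no test.

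Among the sensing genes the stimulus lowered 2 at 6 h and 2 at 24 h and raised none, beside 20.6% and 18.7% of all genes called lower. Srebf1, which encodes SREBP1, had 109, 119.6, 110.4 and 119 CPM without and 41.9, 46.6, 43.1 and 42.7 CPM with the stimulus at 6 h, a fall by 1.39 ± 0.06 (adjusted p = 3.28e-11). At 24 h its values overlapped, at 95.5 to 99.3 CPM without and 79.6 to 99.9 CPM with the stimulus, and the response differed between the times by 1.31 ± 0.08 (adjusted p = 1.34e-08). Insig1, itself a target of SREBP, took the opposite course. Its libraries overlapped at 6 h, at 114 to 157 CPM without and 106 to 134 CPM with the stimulus, and at 24 h it had 76.3, 82.4, 78.5 and 96.3 CPM without and 28.7, 31.6, 30.9 and 36.9 CPM with it. That was a fall by 1.38 ± 0.09 (adjusted p = 4.14e-09), and the response differed between the times by -1.24 ± 0.12 (adjusted p = 1.03e-06), or -0.84 and not called under own totals.

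Scap, the escort of SREBP, fell at both times. It had 16.1, 17.6, 22.4 and 20.2 CPM without and 4.22, 5.08, 5.61 and 5.34 CPM with the stimulus at 6 h, a fall by 1.91 ± 0.09 (adjusted p = 1.86e-10), and at 24 h it fell by 1.30 ± 0.09 (adjusted p = 1.68e-08). Its change with time without stimulus was 0.99, and it was called at 1.02 or 1.03 when library 2, 3 or 46 was left out. Srebf2, which encodes SREBP2, had a log2 change of -0.11 at 6 h (adjusted p = 0.0876) and of -0.76 ± 0.06 at 24 h (adjusted p = 2.37e-08), under a fold of 2. The latter was called at -1.09 under own totals and at -1.13 under quantile normalization. Insig2 had log2 changes of 0.48 and 0.37, the first of which turned to -0.25 under own totals.

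**Figure D4:**
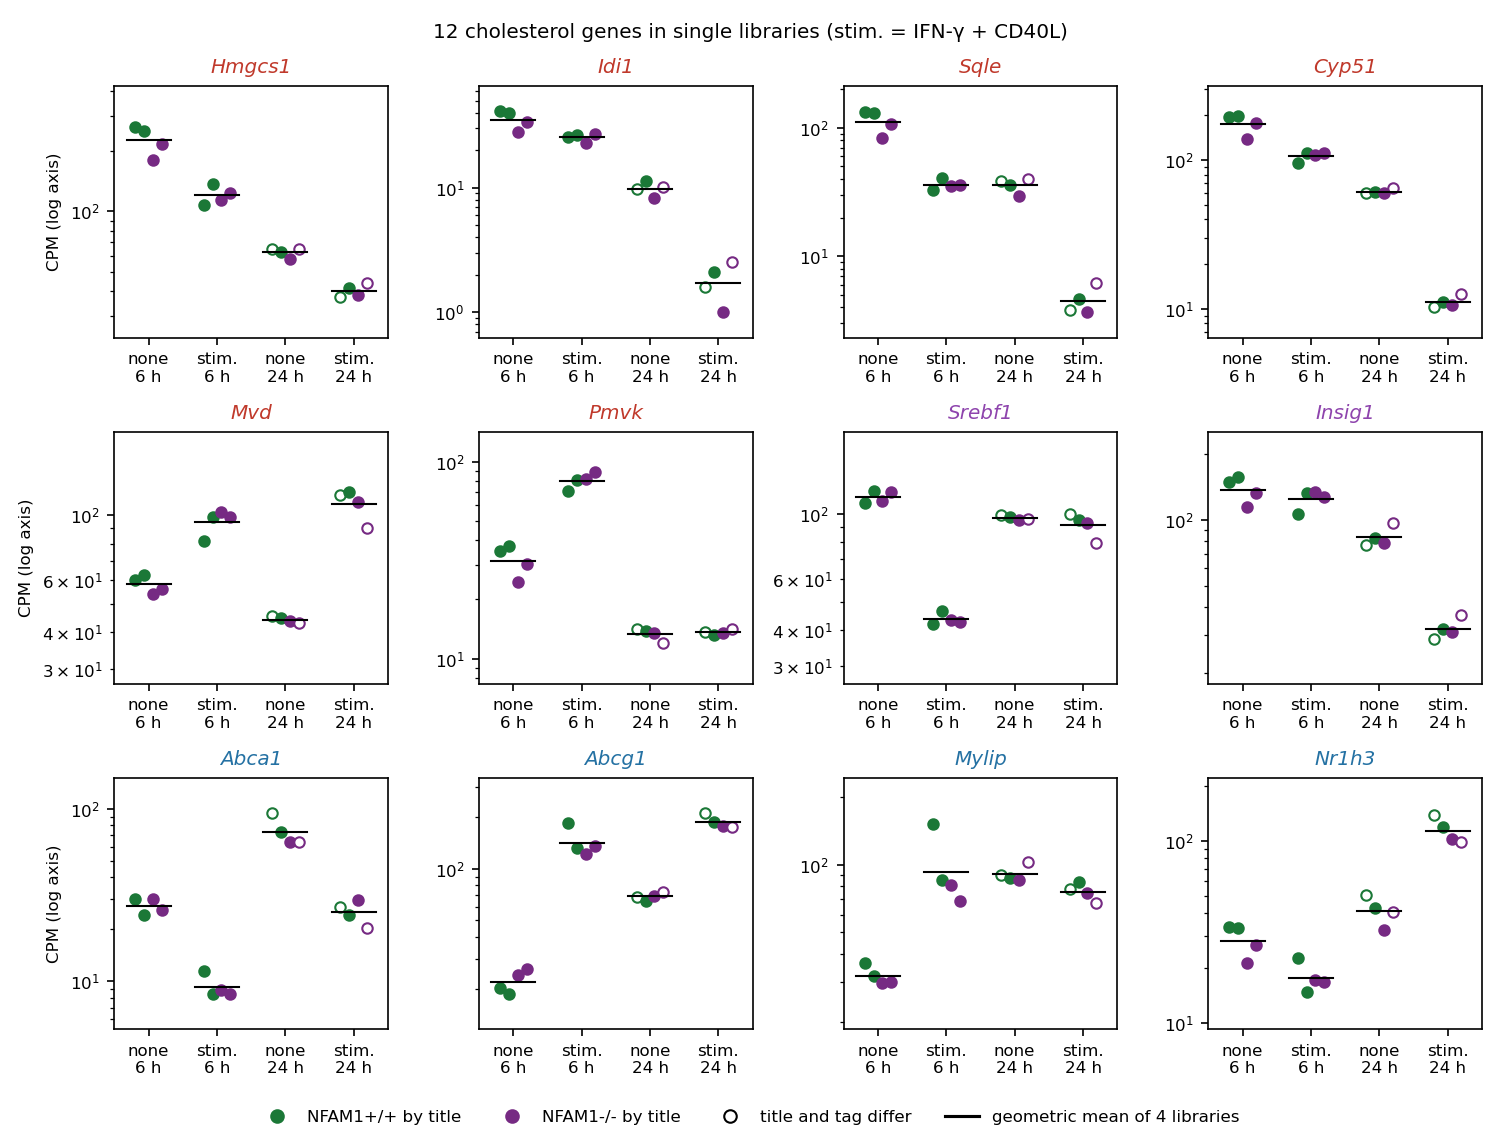
CPM on a log axis of 12 genes in each of the 16 libraries, by condition, with the geometric mean of 4 libraries as a bar, colours for the NFAM1 genotype of the title and open circles where the tag differs. The 4 stimulated libraries at 24 h have 3.69 to 6.21 CPM of Sqle and 174 to 212 CPM of Abcg1.

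The efflux genes moved in both directions. At 6 h 2 of the 4 rose and 1 fell, with a median of 0.42, but under own totals 1 rose and 2 fell and the median turned to -0.31. At 24 h 2 rose and 1 fell, with a median of 0.58, and the counts were the same under own totals with a median of 0.25. Of all genes 20.6% were called lower and 19.1% higher at 6 h, and 18.7% and 14.6% at 24 h. Under own totals 44% of all genes were called lower and 11.9% higher at 6 h, and 26.1% and 11% at 24 h. The cholesterol exporters themselves parted. Abcg1, which passes cholesterol to lipoprotein particles, had 20.3, 18.6, 24 and 26 CPM without and 186, 132, 121 and 135 CPM with the stimulus at 6 h. It rose by 2.68 ± 0.09 (adjusted p = 2.32e-12) and still by 1.95 under own totals. At 24 h it had 68.8, 64.6, 69.4 and 73.4 CPM without and 212, 187, 178 and 174 CPM with the stimulus, a rise of 1.44 ± 0.09 (adjusted p = 2.83e-09), or 1.11 under own totals.

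Abca1, which loads lipid onto apolipoprotein A-I, fell instead. It had 29.8, 24.1, 29.8 and 25.9 CPM without and 11.5, 8.4, 8.87 and 8.46 CPM with the stimulus at 6 h, and at 24 h 94.8, 73.7, 64.2 and 64 CPM without and 27, 24.3, 29.4 and 20.3 CPM with it. All stimulated libraries lay below all unstimulated ones of the same time. The falls were 1.57 ± 0.13 (adjusted p = 6.36e-08) and 1.55 ± 0.13 (adjusted p = 8.64e-08), and their difference was 0.02 ± 0.18 (adjusted p = 0.941).

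Nr1h3, which encodes LXRα, changed its course with time. It had 33.8, 33, 21.4 and 26.9 CPM without and 22.6, 14.7, 17.2 and 16.8 CPM with the stimulus at 6 h, where the groups overlapped and the log2 change was -0.68 ± 0.12 (adjusted p = 0.000162), or -1.41 and called under own totals. At 24 h it had 50.5, 42.9, 32.5 and 40.8 CPM without and 139, 118, 103 and 98.8 CPM with it, a rise of 1.47 ± 0.12 (adjusted p = 8.69e-08), or 1.13 under own totals. The difference of the responses was 2.15 ± 0.17 (adjusted p = 1.38e-07). Nr1h2, which encodes LXRβ, had log2 changes of 0.92 and 0.88, or 0.19 and 0.55 under own totals, under a fold of 2. When libraries were centred on their medians, its change at 6 h was 1.09 and was called.

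Mylip, the ubiquitin ligase of lipoprotein receptors, showed an early response. It had 36.6, 32.1, 29.7 and 30 CPM without and 152, 85.6, 81.1 and 68.8 CPM with the stimulus at 6 h, with library 26 the highest. It rose by 1.53 ± 0.13 (adjusted p = 1.15e-07), or by 0.80 under own totals, which is under a fold of 2. At 24 h it had 85.1 to 103 CPM without and 67.3 to 83.7 CPM with the stimulus, a log2 change of -0.27 ± 0.13 (adjusted p = 0.0844). The response differed between the times by -1.80 ± 0.19 (adjusted p = 1.68e-06). Without stimulus 3 of the 4 efflux genes rose with time, with a median of 1.47 over the 4, beside 13.2% of all genes called higher. These are the 24 h libraries with the higher sum of neutrophil markers. Nr1h3, at 0.54, was under a fold of 2.

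Of the transport genes Stard4, a carrier of sterol between membranes, followed the synthesis enzymes. It had 93.8, 93.7, 70.7 and 83.8 CPM without and 24.4, 31.2, 25.3 and 27 CPM with the stimulus at 6 h, a fall by 1.66 ± 0.11 (adjusted p = 3.44e-09), and it fell by 2.61 ± 0.11 at 24 h (adjusted p = 3.01e-11), to 4.88 to 6.69 CPM. Npc2, which binds cholesterol in the lumen of the lysosome, had a log2 change of 1.21 ± 0.09 at 6 h and 1.002 ± 0.09 at 24 h. Under own totals these were 0.48 and 0.67, under quantile normalization 0.09 and 0.33, and the call at 24 h was lost without library 43, 45, 55 or 56, at 0.98, 0.95, 0.96 and 0.96. Npc1, its partner in the lysosomal membrane, rose with time without stimulus by 1.79 ± 0.10 (adjusted p = 3.35e-09), from 66.8 to 88.7 CPM to 252 to 279 CPM, and with the stimulus by 1.84 ± 0.10 (adjusted p = 9.75e-10). With the stimulus it had 40.3 to 54.2 CPM at 6 h and 139 to 205 CPM at 24 h, below the unstimulated libraries of the same time. These falls were under a fold of 2. They were called at -1.44 under own totals at 6 h and at -1.04 under quantile normalization at 24 h.

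Ch25h, the cholesterol 25-hydroxylase, had the widest range of the 33. It had 0.288, 0.12, 0.0566 and 0.302 CPM without stimulus at 6 h, from 6 to 34 reads, and 317, 303, 344 and 340.0 CPM with it. At 24 h it had 0.242 to 0.628 CPM without and 41.2, 50.7, 35.5 and 66 CPM with the stimulus. The log2 changes were 11.03 ± 0.46 and 6.76 ± 0.46, or 10.30 and 6.42 under own totals. The response at 24 h was lower by 4.27 ± 0.65. Ch25h passed the filter only through the stimulated libraries and had few reads without the stimulus. Its fold sizes are therefore imprecise, and no p value is set beside them. Its rise with time without stimulus, at 1.48, rests on few reads and was not called without library 2, 3 or 44, at 1.17, 0.88 and 1.14. Nor was it called with voom weights at 1.43, with only the groups compared at 1.48, or without the 4 conflicting libraries at 0.95. Soat1, which esterifies cholesterol for storage, had 194, 179, 201 and 211 CPM without and 102, 90.5, 101 and 91 CPM with the stimulus at 6 h. Its fall by 1.03 ± 0.08 lay at the fold threshold and was not called without library 1, 10 or 12, at -0.998, -0.983 and -0.990, nor when libraries were centred on their medians, at -0.86. At 24 h its change was -0.80 ± 0.08 (adjusted p = 3.07e-07), and it was called at -1.14 under own totals and at -1.20 under quantile normalization.

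Neighbouring lists were counted in the same fit. The shares of all genes to set beside the counts are 20.6% lower and 19.1% higher at 6 h, and 18.7% and 14.6% at 24 h. Several lists lie near them. Of 13 listed fatty acid synthesis genes under SREBP, 6 fell and 0 rose at 6 h and 8 fell and 0 rose at 24 h. Under own totals 11 and 9 fell, beside 44.0% and 26.1% of all genes, while 11.9% and 11.0% of all genes rose on that scale. The desaturase Fads1 fell by 2.66 ± 0.17 and 4.40 ± 0.17, the elongase Elovl6 by 1.41 ± 0.22 and 3.94 ± 0.22, the desaturase Scd2 by 3.36 ± 0.16 and 1.73 ± 0.16 and the fatty acid synthase Fasn by 2.48 ± 0.12 and 3.08 ± 0.12, at 6 and 24 h. Of 10 genes of SREBP processing and degradation 1 rose at 6 h, Rnf139 by 2.03 ± 0.05, or 1.30 under own totals, where 4 others fell, and none was called at 24 h. Of 10 genes of the isoprenoid branch 2 rose and 0 fell at 6 h, which turned to 1 and 2 under own totals. Pdss1 rose by 1.94 ± 0.12, or 1.21 under own totals, and Coq2 by 1.21 ± 0.08, or 0.48 and no longer called. None was called at 24 h.

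Of 9 listed LXR partners and targets 7 fell at 6 h and 5 at 24 h, and 0 rose, with 8 and 5 falls under own totals. The phospholipid transfer protein Pltp fell by 4.32 ± 0.12 and 3.67 ± 0.12, the receptor partner Rxra by 1.73 ± 0.10 and 1.62 ± 0.10 and Smpdl3a by 1.69 ± 0.08 and 1.25 ± 0.08. Of 7 listed genes of scavenger and endocytic uptake 4 fell at 6 h and 5 at 24 h, and 0 rose, with 6 and 5 falls under own totals. The oxidized lipoprotein receptor Olr1 fell by 1.53 ± 0.12 and 2.92 ± 0.12, the fatty acid and lipoprotein receptor Cd36 by 1.73 ± 0.18 and 2.78 ± 0.18 and the receptor Scarb1 by 1.68 ± 0.08 and 2.34 ± 0.08. The lysosomal lipase Lipa fell by 1.77 ± 0.07 at 24 h.

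Sterol transfer and storage genes moved in both directions. Of 9 listed sterol transfer genes 3 rose and 2 fell at 6 h, and 1 rose at 24 h. Under own totals 2 rose and 4 fell at 6 h, and 1 rose and 1 fell at 24 h. Tspo, a mitochondrial outer membrane protein, rose by 2.61 ± 0.06 and 2.65 ± 0.06, or 1.88 and 2.31 under own totals. Stard3 rose by 1.88 ± 0.06 at 6 h, or 1.15 under own totals, and Gramd1b by 1.09 ± 0.07, or 0.36 and no longer called. Stard5 fell by 1.01 ± 0.10 at 6 h. Of 9 genes of ester storage and droplets 2 rose and 3 fell at 6 h, and 2 rose and 1 fell at 24 h. Under own totals 1 rose and 4 fell at 6 h, and 1 rose and 2 fell at 24 h. The acyltransferase Soat2 rose by 2.21 ± 0.12 and 3.63 ± 0.12, or 1.48 and 3.30 under own totals, and the esterase Nceh1 fell by 1.48 ± 0.13 at 24 h. Hilpda fell by 1.89 ± 0.23 at 6 h, and Dgat2 fell by 1.84 ± 0.19 at 6 h and rose by 1.12 ± 0.19 at 24 h, or 0.79 and no longer called under own totals. Of the list of oxysterol metabolism 2 genes were listed. Gpr183, a receptor for an oxysterol made from 25-hydroxycholesterol, fell by 6.20 ± 0.09 and 5.48 ± 0.09, from 78.3 to 98.6 CPM to 1.03 to 1.48 CPM at 6 h, and Cyp27a1, the sterol 27-hydroxylase, fell by 2.84 ± 0.06 at 24 h.

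The genotype comparisons asked whether loss of NFAM1 shifted these genes. No member was called in any of the 5. Without stimulus at 6 h 0.0861% of all genes were called, and 1289 genes had an unadjusted p under 0.05, among them 12 members. Of the 18 synthesis enzymes 16 had a negative log2 difference in NFAM1-/-, with a median of -0.33 beside 0.01 over all genes, and the smallest adjusted p was 0.165, for Pmvk. Sqle had 133 and 131 CPM in NFAM1+/+ and 83.2 and 107 CPM in NFAM1-/-, a log2 difference of -0.48 ± 0.21 (adjusted p = 0.47). Library 3 was the lower of the NFAM1-/- pair for Sqle, and without it the median over the enzymes was -0.16.

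**Figure D5:**
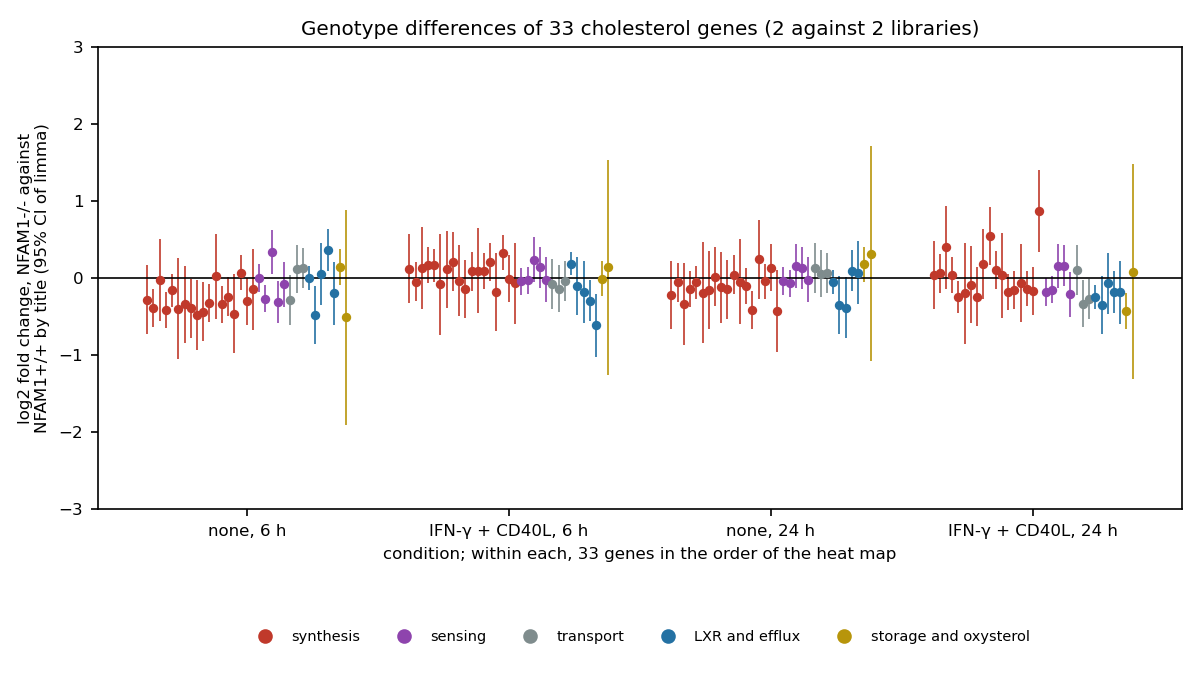
Log2 difference between NFAM1-/- and NFAM1+/+ by title for each of the 33 genes in each of the 4 conditions, 2 against 2 libraries, with 95% confidence intervals of limma. The medians of the 18 synthesis enzymes are -0.33, 0.09, -0.11 and -0.01 from left to right.

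With the stimulus at 6 h 0% of all genes were called by limma, 1862 had an unadjusted p under 0.05, and the median over the synthesis enzymes was 0.09. Mylip had the largest difference among the members, at -0.61 ± 0.19 (adjusted p = 0.207), and passed at -1.03 (adjusted p = 0.00124) without library 10. That leaves 1 library in its group, number 26, which is the highest for Mylip, with the spread taken from other groups, so no difference is read from it. The interaction of genotype and stimulus at 6 h called 0% of all genes by limma, with 1090 at an unadjusted p under 0.05. Its sign was positive in 18 of 18 synthesis enzymes, from 0.07 to 0.60, as it was in 10 of 10 proliferation genes, 9 of 9 interferon genes and 6626 of all 12782 genes. The median over the enzymes was 0.33, or 0.22 without library 3 and 0.56 without library 4, and the smallest adjusted p among the enzymes was 0.363, so no difference of the response between genotypes was detected for any single enzyme. This contrast shares all its libraries with the genotype comparisons without and with the stimulus at 6 h.

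At 24 h, by title, 0.289% of all genes were called without and 0.579% with the stimulus, and no member among them. The medians over the synthesis enzymes were -0.11 and -0.01 by title, -0.06 and -0.06 by the genotype tag, and -0.15 and -0.11 without the 4 libraries of conflicting labels, which leaves 1 library a group. The members with the smallest adjusted p were Nsdhl without the stimulus, at -0.42 ± 0.12 (adjusted p = 0.144), and Soat1 with it, at -0.43 ± 0.11 (adjusted p = 0.06). Dhcr7 had 2.96 and 2.05 CPM in libraries 56 and 57 and 3.98 and 5.11 CPM in libraries 55 and 58, a log2 difference of 0.87 ± 0.25 (adjusted p = 0.0851). With 2 libraries a group these tests leave wide intervals, as the plot of genotype differences shows.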

How the data were processed

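PolyA RNA of 16 libraries was sequenced without strand in paired reads of 101 bases. The authors deposited log2 CPM for 13085 genes, made with FastQC, STAR, Rsubread and edgeR and tested with limma. Their notes name GRCm39 and mm39, and tool versions, the annotation and their filter are not given in the sources used here. From each deposited log2 value, given 0.5 added reads and a scaled total, a read count was recovered that was whole to within 0.1 in 100% of cases. This gave 48295939 to 88514341 reads on listed genes per library. Genes with few reads, such as Ch25h without stimulus with 6 to 34 reads at 6 h, are measured with little precision. Dates stand in place of 17 symbols, 1 symbol is listed more than once, and no member is among them. No pair of libraries was identical among 120 pairs, and libraries of 1 group correlated at 0.968 to 0.986.

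All 16 libraries were fitted with limma 3.58.1 in R 4.3.3, with 8 groups of title genotype, stimulus and time, 8 residual degrees of freedom and a prior variance that follows mean expression. A gene needed 1 CPM or more in 2 or more libraries to be tested, which left out 303. Calls needed a 2-fold change or larger and a p under 0.05 after the adjustment of Benjamini and Hochberg, the thresholds of the study. The fit was tested on simulated data. Lists were described by counts and medians. Overlaps of genes were read from the GENCODE vM21 annotation of GRCm38 and promoters from RefSeq on GRCm38.p6, and the authors may have used another annotation. Count models were not run.

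The named genes are all 33 members, up to 4 called genes with the largest change for the stimulus from each of the other lists, and genes among the 10 closest to the profile of the synthesis enzymes. The members and lists were chosen with earlier results of these data known. The alternatives were to test every gene, to require 5 CPM on average, scaling to own totals of recovered reads, quantile normalization, centring on medians, voom weights, a robust prior, no minimum fold change, only the groups compared, the genotype of the tag, the 4 conflicting libraries left out, 4 groups without genotype, and each library left out in turn. Adding 2 reads in place of 0.5 was chosen after seeing the data. Libraries with IFN-γ alone are not analysed here. Some genes outside the member list are not reported here.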

Additional observations from a re-analysis of the deposited data

Results flagged for a closer look

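Among 132 sets of 4 libraries (33 genes in 4 conditions) 2 held a library far from the other 3 by Dixon's test (the gap to the nearest library over the whole range, on log2 values), where about 6.6 are expected by chance. Ebp had 37.4 CPM in library 45 against 34.9 to 35.3 CPM in the other unstimulated libraries at 24 h. Sc5d had 7.86 CPM in library 55 against 9.99 to 10.1 CPM in the other stimulated libraries at 24 h. No cause was tested.

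The response to the stimulus differed between 24 h and 6 h, by an interaction test with limma, in 13 of 33 members, beside 31.5% of all genes tested. On the log2 scale of the response at 24 h minus that at 6 h, the lower ones were Ch25h at -4.27, Idi1 at -2.06, Mylip at -1.80, Cyp51 at -1.75, Sqle at -1.35, Pmvk at -1.32, Fdps at -1.27, Hsd17b7 at -1.25, Insig1 at -1.24 and Abcg1 at -1.24. The higher ones were Nr1h3 at 2.15, Srebf1 at 1.31 and Acat2 at 1.18. Ch25h passed the filter only through the stimulated libraries. Under own totals 6 of the 13 were no longer called: Sqle at -0.95, Pmvk at -0.92, Fdps at -0.87, Hsd17b7 at -0.85, Insig1 at -0.84 and Abcg1 at -0.84. Mvk at 1.02 and Scap at 1.01 were called in addition. On that scale 4 members were called lower and 5 higher, or 12.1% and 15.2%, against 12.2% and 25.3% of all genes.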

How the results depend on the processing

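With 2 libraries a group and 8 residual degrees of freedom the genotype counts were fragile and small genotype differences could not be resolved. Stimulus and time compare 4 with 4 libraries, but time and processing cannot be told apart, bulk RNA mixes cells, and the deposited scaling sets the zero of every stimulus contrast. No paired analysis was possible because the groups compared share no replicate number, and the sources used here do not say which libraries came from the same mouse. The members and lists are short.

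Genes called with a mean of at least 5 CPM were 3275 (stimulus at 6 h), 2554 (stimulus at 24 h), 1446 (time without stimulus), 2746 (time with stimulus), 2658 (response at 24 h against 6 h) and 5 (genotype without stimulus at 6 h). With no minimum fold change they were 10003, 9564, 8233, 9763, 8588 and 20 for the same 6, and 122 and 269 for genotype at 24 h without and with the stimulus. Synthesis enzymes called lower at 6 h were 15 under own totals and 14 with no minimum fold change. Their median was -1.53 under own totals and -0.63 centred on medians at 6 h, -1.33 under own totals at 24 h, and for time with the stimulus -1.58 with a mean of at least 5 CPM, -1.06 under own totals and -1.60 centred on medians.

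Genotype counts were 5 by the tag without stimulus at 6 h, and with it 4 under quantile normalization and 3 without the 4 conflicting libraries. Without stimulus at 24 h they were 21 with only the groups compared, 2 by the tag and 4 without the conflicting libraries, and with it 0, 3 and 14. Leaving out 1 library at a time gave 1 to 40 (none, 6 h), 0 to 126 (stimulus, 6 h), 7 to 64 (none, 24 h), 1 to 182 (stimulus, 24 h) and 0 to 55 (genotype by stimulus at 6 h) genes, and medians of the synthesis enzymes of -0.48 to -0.16 without and -0.0511 to 0.22 with the stimulus at 6 h.

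Signs reversed as follows. Stimulus at 6 h: own totals gave Mvd -0.0229, Ebp -0.46 and Insig2 -0.25, and centring gave Srebf2 0.0573 and Insig1 0.0294. Stimulus at 24 h: Acat2 0.14 under quantile normalization, Pmvk -0.30 under own totals and -0.0267 without the conflicting libraries, Nsdhl 0.0473 under quantile normalization, 0.00568 centred and 0.0278 without the conflicting libraries, and Ebp -0.19 under own totals. Time with the stimulus: own totals gave Nsdhl 0.28, Ebp 0.0117, Insig2 0.11 and Mylip 0.0851, centring gave Dhcr7 -0.14, Npc2 -0.00838 and Nr1h2 -0.0955, and Dhcr7 was -0.0148 under quantile normalization and -0.19 without the conflicting libraries. With 1 library left out Pmvk ran from -0.0101 to 0.0753 and Nsdhl from -0.0412 to 0.0285 for the stimulus at 24 h, and Dhcr7 from -0.16 to 0.22 for time with the stimulus.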

Other observations

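Outside the members, Gpr183 and Pltp had larger falls with the stimulus than any synthesis enzyme, and Soat2 rose at both times. No test of a cause was made.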
